A study of Rattus norvegicus with 54 samples.

Results

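Cytochrome P450 genes outside the Cyp1 family were followed across liver, epididymal adipose tissue and skeletal muscle of male Zucker rats. Members were all probe sets with a single annotated symbol that began with Cyp and a digit, without Cyp1a, Cyp1b and Cyp51. The rule used no measured value and found 52 of 15866 probe sets, for 49 of 10411 genes with a probe set of a single symbol. They comprised 24 probe sets of Cyp2, 4 of Cyp3a, 12 of Cyp4 and 12 of other families. No Cyp2b1, Cyp2b2 or Cyp4a2 probe set was among them, and 6 P450 probe sets with several symbols were not members.

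Lean rats (fa/+) and obese rats (fa/fa, which carry an inactive leptin receptor) on normal chow without a drug were compared with obese rats given pioglitazone, rosiglitazone, troglitazone or AG035029, all named in the labels as PPARγ ligands. All rats were male Zucker rats, so a lean rat still carried 1 fa allele, and the ligands were given to obese rats only. Pioglitazone, rosiglitazone and troglitazone are thiazolidinediones, and AG035029 is known here only by its code. Doses, treatment times and ages were not given in the sources used here. Each of the 6 groups had 3 arrays per tissue, 54 in all, and each array held RNA pooled from 2 rats, so 6 rats stood behind a group.

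P450 enzymes are haem proteins that insert oxygen into lipids, steroids, bile acids, vitamins and drugs, with electrons passed on by the reductase Por in the endoplasmic reticulum or by ferredoxin in mitochondria. The liver makes most of them. Many Cyp2 and Cyp3a enzymes act on drugs and steroids, and some of their genes are known targets of the nuclear receptors PXR (Nr1i2) and CAR (Nr1i3). Cyp4 enzymes hydroxylate fatty acids, and the Cyp4a genes are known targets of PPARα. Cyp7a1, Cyp7b1, Cyp8b1 and Cyp27a1 make bile acids from cholesterol. In rats several liver P450 genes, among them Cyp2c11, Cyp3a2 and Cyp2c12, also depend on sex and growth hormone.

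The 3 tissues matched their labels by marker genes. The summed signal of 14 hepatocyte genes was 345638 to 554024 in liver arrays and at most 22782 elsewhere. The sum of 11 skeletal muscle genes was 326103 to 651625 in muscle arrays, and 8 adipocyte genes summed to 44220 to 72460 in adipose arrays. Median signals of the arrays lay between 190.7 and 248.4 after the authors' scaling. In bulk tissue, fewer cells of a type and less RNA per cell cannot be told apart. The AG035029 adipose array numbered 1 held epididymal transcripts, with Defb1, a defensin of the epididymis, at 4623 against at most 65.0 on the other 17 adipose arrays. Skeletal muscle genes summed to 36946 on the troglitazone liver array numbered 3 and to 12001 and 14572 on the other troglitazone liver arrays. On the lean liver array numbered 2 they summed to 19249, against 9196 and 10554 on the other lean liver arrays.

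Promoters of the Cyp3a genes are shown because this subfamily held the liver members that differed most between lean and obese rats. Each runs from 250 bases before to 50 bases after the annotated start, from RefSeq on build GRCr8, read along the gene. Capitals mark matches to the 6-base motifs AGGTCA or AGTTCA on either strand, the second of which is TGAACT on the other strand. Nuclear receptors such as PXR and CAR bind pairs of such motifs.
Cyp3a2, chr12:14343808-14344107, minus strand: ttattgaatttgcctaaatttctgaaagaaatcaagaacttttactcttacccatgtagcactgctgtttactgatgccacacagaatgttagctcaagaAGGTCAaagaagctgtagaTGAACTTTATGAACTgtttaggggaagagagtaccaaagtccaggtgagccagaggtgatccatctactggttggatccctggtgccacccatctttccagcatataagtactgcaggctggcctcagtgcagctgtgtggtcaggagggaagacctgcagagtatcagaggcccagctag
Cyp3a23-3a1, chr12:14398754-14399053, minus strand: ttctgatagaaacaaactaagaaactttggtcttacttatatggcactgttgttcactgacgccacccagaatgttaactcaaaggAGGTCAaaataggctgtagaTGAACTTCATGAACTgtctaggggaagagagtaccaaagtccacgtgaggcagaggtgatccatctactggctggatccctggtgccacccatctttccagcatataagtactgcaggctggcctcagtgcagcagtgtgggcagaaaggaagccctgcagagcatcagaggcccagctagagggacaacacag
Cyp3a18, chr12:13994062-13994361, plus strand: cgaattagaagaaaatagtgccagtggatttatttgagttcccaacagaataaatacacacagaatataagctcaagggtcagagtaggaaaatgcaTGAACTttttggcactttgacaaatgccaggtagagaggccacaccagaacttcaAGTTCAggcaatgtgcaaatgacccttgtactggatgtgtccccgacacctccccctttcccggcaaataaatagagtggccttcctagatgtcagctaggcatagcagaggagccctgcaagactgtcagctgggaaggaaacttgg
Cyp3a9, chr12:21960111-21960410, minus strand: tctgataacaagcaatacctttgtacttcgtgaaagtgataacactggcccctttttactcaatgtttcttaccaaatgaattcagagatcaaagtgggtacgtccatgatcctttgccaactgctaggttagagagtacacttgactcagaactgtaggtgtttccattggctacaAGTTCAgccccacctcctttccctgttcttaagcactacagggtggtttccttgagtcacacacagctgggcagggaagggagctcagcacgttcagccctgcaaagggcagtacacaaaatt

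In Cyp3a2 and Cyp3a23-3a1, 2 AGTTCA motifs lay in direct repeat with 3 bases between them, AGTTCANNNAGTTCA on the strand opposite the gene. In Cyp3a2 this repeat covered bases -131 to -117 from the start, read TGAACTTTATGAACT, and in Cyp3a23-3a1 bases -144 to -130, read TGAACTTCATGAACT. Searched on both strands, the repeat was found in 2 of 33469 RefSeq promoters of the same length, or 0.00598%, and these were the 2 genes named. Cyp3a18 held 2 AGTTCA motifs that did not form the repeat, and Cyp3a9 held 1. Of the 49 P450 genes, 38 had a promoter in the table. AGTTCA was in 34.2% of these 38 and in 14.5% of all promoters, and AGGTCA in 34.2% and 16.2%. The direct repeat AGGTCANAGGTCA, the form to which PPAR and RXR pairs bind, was in 0 of the 38 promoters and in 0.0538% of all. At so low a share 38 promoters are too few for a match to be likely, so the 0 says nothing of these genes. These letter matches overlap, since each repeat holds its motifs, and they are not evidence of binding. The windows of Cyp3a2 and Cyp3a23-3a1 were identical in 80.6% of aligned positions, and the other Cyp3a pairs in 54.2% to 58.7%. In the gene order of that assembly, Cyp3a18, Cyp3a2 and Cyp3a23-3a1 neighboured each other with at most 4 other protein-coding genes between neighbours.

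In lean rats 44 of the 52 probe sets had their highest mean signal in liver (34.7% of all 15866 probe sets), and for 37 of these all 3 liver arrays lay above all lean adipose and muscle arrays (13.7% of all). The 8 highest lean liver means belonged to Cyp2c7, Cyp2e1, Cyp2c6v1, Cyp2c11, Cyp2d2, Cyp2c13, Cyp2c22 and Cyp2c23, all of the Cyp2 family, with means of 15922 to 38213. Cyp2e1, which oxidises ethanol and other small molecules, read 28593, 23631 and 33711 in lean liver, with a mean of 28645 ± 5040 (SD, n = 3). Probe sets bind with different strength, so such readings rank probe sets by signal and not genes by RNA. After the filter on low signal 40 members were tested in liver, 11 in adipose tissue and 14 in muscle. Of the 52, 8 were tested in all 3 tissues and 9 in none, Cyp7b1 and Cyp26b1 among the latter.

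**Figure D1:**
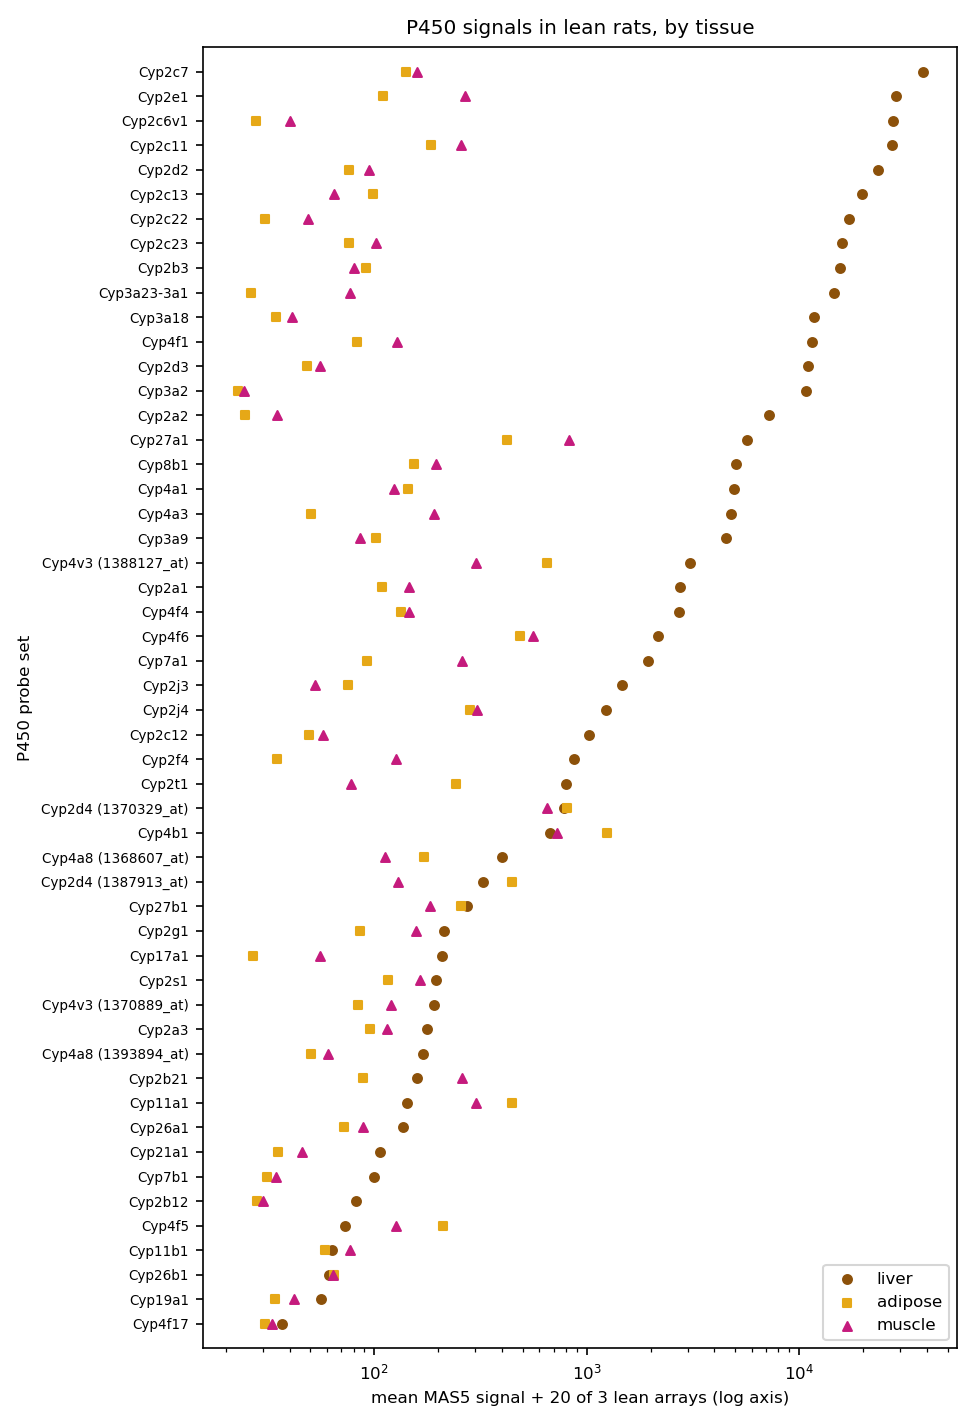
Mean signal of each P450 probe set in lean rats (3 arrays per tissue; 20 was added before the log axis), ordered by the liver mean, with liver as circles, adipose tissue as squares and muscle as triangles. In 44 of 52 rows the liver circle is farthest to the right, in 6 the adipose square and in 2 the muscle triangle. Of those 6, only Cyp4b1 and Cyp4f5 had all 3 lean adipose arrays above all other lean arrays. Levels in different rows come from different probe sets and are not comparable.

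In a joint fit of all 54 arrays, 30 members passed the filter on the mean over all tissues. A gene bright in liver alone passes that filter and then has to differ, so liver was compared with the other tissues over the 8 members above the filter in each tissue (2 probe sets of Cyp2d4, and Cyp2j4, Cyp4b1, Cyp4f6, Cyp4v3, Cyp27a1 and Cyp27b1). Lean liver exceeded lean adipose tissue for 4 of the 8 and was below it for 1 (limma, adjusted p under 0.05). Of all 7517 probe sets above the filter in each tissue, 53.9% were called there, 20% higher in liver and 33.9% lower. Against lean muscle 5 of the 8 were higher in liver and 0 lower, while 55% of the 7517 were called, 24.1% higher and 30.9% lower. Between adipose tissue and muscle 4 of the 8 differed, 3 higher in adipose tissue and 1 in muscle (58.7% of the 7517, 33.9% and 24.8%). Over the 30 members 10 differed between those 2 tissues, 4 higher in adipose tissue and 6 higher in muscle. Of all probe sets 59.3% differed, 33.9% and 25.3% by direction. Members that passed the filter through liver alone are dim in both other tissues and can hardly differ there. The 10 of 30 therefore cannot be set against that share.

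Cyp4b1, a Cyp4 enzyme that hydroxylates fatty acids and activates some furans, had an unlike pattern. Its lean arrays read 1227, 1237 and 1213 in adipose tissue, 884, 639 and 588 in muscle and a mean of 656 in liver. Lean adipose tissue was higher than liver by 0.90 (adjusted p = 0.0011) and higher than muscle by 0.81 ± 0.23 (limma, adjusted p = 0.00292), while liver and muscle did not differ by the test (-0.09, adjusted p = 0.758). Cyp11a1, the mitochondrial enzyme that starts steroid synthesis, was lower in lean liver than in lean adipose tissue by 1.78 ± 0.44 (adjusted p = 0.000615) and lower than in muscle by 1.2 ± 0.44 (limma, adjusted p = 0.0177). In liver it was below the filter, with a lean mean of 122 against a cutoff signal of 146.3. Cyp11a1 thus entered the joint fit through the other tissues, and these 2 tests give no support of their own for a difference. The dimmer of 2 Cyp2d4 probe sets was higher in adipose tissue than in muscle by 2.09 ± 0.32, whereas the brighter one had a difference of 0.33 ± 0.23 that did not pass. The dimmer one had a lean muscle mean of 110, below the muscle filter cutoff of 138.8, so its difference rests on dim muscle arrays. Cyp27a1, the mitochondrial sterol hydroxylase, was higher in lean muscle than in lean adipose tissue by 1.0 ± 0.16 (limma, adjusted p = 1.34e-06).

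In liver, obese rats had less Cyp3a2 and Cyp3a18 signal than lean rats, and no other member passed the test. These 2 of 40 members called compare with 0.672% of all 9519 probe sets tested in liver. Over the 40 members the median difference was -0.05, against -0.01 over all probe sets, and 19 members were positive and 21 negative. The lean and obese arrays did not overlap for 8 of 40 members (13.7% of all), which were Cyp3a2, Cyp3a18, Cyp2c11, Cyp2c22, Cyp2j3, Cyp4a1, Cyp17a1 and Cyp27a1. Cyp3a enzymes hydroxylate testosterone and many drugs, and Cyp3a2 is the form typical of adult male rats.

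Cyp3a2 read 9645, 13153 and 9673 on the lean liver arrays and 4066, 1015 and 559 on the obese ones. Every obese array was below every lean array, and the obese arrays themselves spread over a wide range. The difference was -2.99 ± 0.53 (SE) on the log2 scale (limma, adjusted p = 0.00491), an obese level of 0.126 times the lean one.

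Cyp3a18, another testosterone hydroxylase, read 9651, 14973 and 10609 in lean liver and 3232, 3276 and 1252 in obese liver. Its groups did not overlap either, and the difference was -2.27 ± 0.29 (limma, adjusted p = 0.000259). Both differences kept their call under each of 25 alternatives, Cyp3a2 with values of -3.79 to -2.38 and Cyp3a18 with values of -2.51 to -1.82.

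Their neighbour Cyp3a23-3a1, the form most readily induced by PXR ligands, read 12303, 18212 and 13206 in lean and 18947, 15562 and 11629 in obese liver, and these groups overlapped (0.07 ± 0.20, adjusted p = 0.954). Cyp3a9, which also hydroxylates steroids, read 4049, 4200 and 5247 in lean and 5919, 4646 and 2364 in obese liver (-0.15 ± 0.23, adjusted p = 0.910). The obese array numbered 3 was the lowest of the 3 obese arrays for all 4 Cyp3a genes. Its share in the Cyp3a differences is given by the values without it. Without it the differences from lean were -2.38 for Cyp3a2 and -1.82 for Cyp3a18, both still called, 0.26 for Cyp3a23-3a1 and 0.23 for Cyp3a9. The hepatocyte marker sum was 489363 to 508497 in lean and 486831 to 554024 in obese liver.

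**Figure D2:**
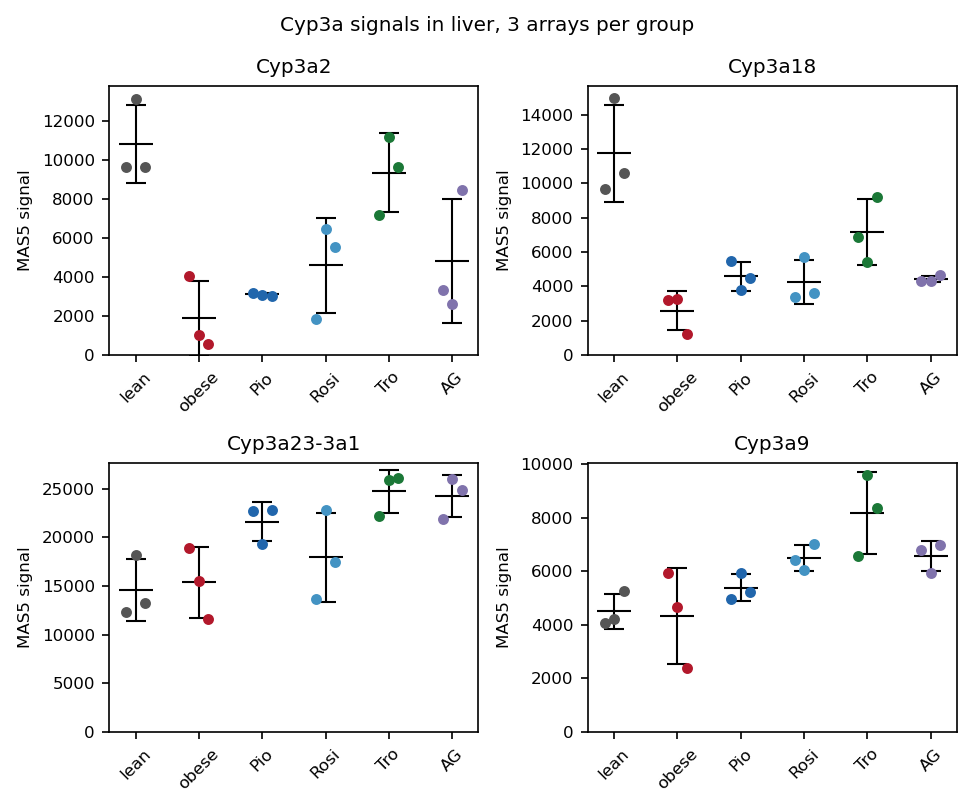
MAS5 signal of the 4 Cyp3a probe sets in liver, with 1 point per array and a bar for the mean ± SD of 3 arrays, in lean rats, obese rats and obese rats given pioglitazone (Pio), rosiglitazone (Rosi), troglitazone (Tro) or AG035029 (AG). Cyp3a2 and Cyp3a18 were lower in each obese array than in each lean array and higher in each troglitazone array than in each obese array; Cyp3a23-3a1 and Cyp3a9 overlapped between lean and obese.

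With the 4 ligands averaged, 2 of 40 members were called in liver, against 0.494% of all probe sets, with Cyp3a18 higher and Cyp2c22 lower than in untreated obese rats. The median over members was 0.10, against -0.01 over all probe sets, and 3 members, Cyp3a18, Cyp2c22 and Cyp4f4, had no overlap between the 12 ligand arrays and the obese arrays (1.48% of all). All 4 Cyp3a genes had a positive difference from obese with each ligand, and the 4 comparisons share the same obese arrays. Troglitazone had the highest Cyp3a median at 1.28, and the others were 0.80 for AG035029, 0.74 for rosiglitazone and 0.72 for pioglitazone. Without the obese array numbered 3 the same medians were 0.86, 0.47, 0.32 and 0.40.

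Cyp3a18 read 3403 to 9196 on the 12 ligand arrays (median 4569), all above the obese arrays. The ligand mean differed from obese by 1.04 ± 0.23 (limma, adjusted p = 0.0476). This call was lost in 19 of 25 alternatives, and without the obese array numbered 3 the value was 0.59 (adjusted p = 0.330). Cyp2c22, whose substrates include retinoic acid, read 24195, 24667 and 24436 in obese liver and 8845 to 21786 on the ligand arrays (median 16109). All ligand arrays lay below the obese ones, and lean arrays, at 17231, 14610 and 19596, did too. The ligand mean differed by -0.69 ± 0.15 (limma, adjusted p = 0.0444), and the call was lost in 15 of 25 alternatives, adjusted p reaching 0.169. The hepatocyte marker sum was 486831 to 554024 in obese liver, 410734 to 480659 with troglitazone and 345638 to 532690 with rosiglitazone. It was 467225 to 553208 with pioglitazone and 475039 to 522943 with AG035029. The part of this sum in the Cyp2c22 difference was not tested. Leaving out 1 array at a time moved the count of 2 by over 1.5 times in 14 of 18 fits, to 4 without the rosiglitazone array numbered 1 and to 0 or 1 in the others.

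Taken singly, troglitazone was the ligand with called members in liver. It raised Cyp3a2, Cyp3a18 and Cyp2j4, 3 of 40 members against 0.662% of all probe sets. Cyp3a2 read 7206, 11219 and 9674 with troglitazone, with its 2 upper arrays inside the range of the lean arrays and all 3 above each obese array. Its difference from obese was 2.78 ± 0.53 (limma, adjusted p = 0.0152), or 6.85-fold. For Cyp3a18 the troglitazone arrays read 6882, 5425 and 9196, with a difference of 1.56 ± 0.29 (limma, adjusted p = 0.0152).

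Cyp2j4, an arachidonic acid epoxygenase, read 945, 1192 and 865 in obese liver and 1920, 1673 and 2069 with troglitazone, a difference of 0.91 ± 0.19 (limma, adjusted p = 0.0245). Without the obese array numbered 3 none of the 3 calls remained (adjusted p = 0.0934 for Cyp3a2, 0.0711 for Cyp3a18 and 0.131 for Cyp2j4), with differences of 2.17, 1.10 and 0.81. Without the troglitazone array numbered 3, which held muscle transcripts, the differences were 2.74, 1.36 and 0.84, and again none passed (adjusted p = 0.0658, 0.0842 and 0.131). Without the troglitazone array numbered 2 only Cyp3a18 passed, and without the obese array numbered 2 the count was 5.

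The other ligands called 0 of 40 members each in liver, where pioglitazone called 0.021% of all probe sets, rosiglitazone 0.063% and AG035029 0.2% (limma). At an unadjusted p under 0.05 the members counted 10 with pioglitazone (6.95% of all), 9 with rosiglitazone (9.38%) and 15 with AG035029 (9.43%), beside 14 with troglitazone (9.96%). Cyp3a2 read 3199, 3100 and 3055 with pioglitazone, 1853, 6449 and 5525 with rosiglitazone and 3357, 2627 and 8469 with AG035029. The obese array at 4066 lay within each of the last 2 ranges and above all 3 pioglitazone arrays. The differences were 1.22, 1.59 and 1.65, each ± 0.53, and none passed (limma, adjusted p = 0.640, 0.291 and 0.284). Cyp3a18 had differences of 0.93, 0.79 and 0.90 with the same 3 ligands, none of which passed.

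Cyp3a9 with troglitazone read 6557, 9597 and 8353, a difference of 1.0 ± 0.23 that missed the threshold (limma, adjusted p = 0.0523). Cyp3a23-3a1 read 22225, 25935 and 26105 with troglitazone and 21899, 26064 and 24910 with AG035029, both above all obese arrays. Those differences were 0.71 and 0.68, each ± 0.20, and did not pass (limma, adjusted p = 0.138 and 0.221).

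Differences among the 4 ligands were tested over 6 pairs and by an F-test. In liver 0 of 40 members passed the F-test (limma; 0.0105% of all), and 11 had an unadjusted p under 0.05 (6.31% of all). None of the 240 pair values of members passed (limma; 0% to 0.021% of all probe sets in each pair). At an unadjusted p under 0.05 there were 43 (17.9%). Troglitazone differed at that level from pioglitazone for 10 members (5.22% of all), from rosiglitazone for 10 (5.06%) and from AG035029 for 9 (6.78%). Pioglitazone differed from rosiglitazone for 3 (5%) and from AG035029 for 6 (4.18%), and rosiglitazone from AG035029 for 5 (7.53%). The members' 95% intervals reached between 0.28 and 1.28 to either side. Whether the ligands were given at matched doses is not known from the sources used here. Troglitazone carries a chromanol group that pioglitazone and rosiglitazone lack. For Cyp3a2 pioglitazone minus troglitazone was -1.56, with an interval from -2.66 to -0.46, and rosiglitazone minus troglitazone was -1.18, from -2.28 to -0.08 (limma, adjusted p = 0.751 and 0.967). For Cyp3a18 the 2 differences were -0.63 and -0.76, with intervals from -1.24 to -0.01 and from -1.38 to -0.15.

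The smallest F-test p among liver members was that of Cyp2a1, a testosterone hydroxylase. It read 7015, 7777 and 6894 with AG035029 and at most 5912 on every other liver array. The difference from obese, at 1.01 ± 0.24, did not pass (limma, adjusted p = 0.100). Cyp2c11, the main P450 of the adult male rat liver, read 27183, 29806 and 25514 in lean, 16798, 24343 and 14383 in obese and 3370, 6402 and 10365 in AG035029 rats. These 3 groups did not overlap, but neither obese minus lean (-0.60 ± 0.39) nor AG035029 minus obese (-1.57 ± 0.39) passed (limma, adjusted p = 0.675 and 0.129). Rosiglitazone exceeded AG035029 for Cyp2c11 by 1.26, with an interval from 0.45 to 2.08 (limma, adjusted p = 0.426). Cyp2t1 and Cyp27b1, the kidney enzyme that activates vitamin D, also had unadjusted F-test p under 0.05 (0.0155 and 0.0224), with lean liver means of 784 and 255.

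Of 21 tested Cyp2 probe sets, 0 passed for obese against lean (limma), 2 had an unadjusted p under 0.05 (9.76% of all probe sets), and their differences ranged from -0.93 to 0.88. Cyp2j3, named after its value was seen, read 1698, 1184 and 1460 in lean and 629, 786 and 830 in obese liver, with no overlap, and missed the threshold (-0.93 ± 0.24, limma, adjusted p = 0.0966). Cyp2c12, typical of female rats, spread from 395 to 2134 among the lean arrays. Cyp2e1 gave 0.07 ± 0.17 for obese against lean and 0.16 ± 0.14 for the ligand mean. The other abundant Cyp2 members, Cyp2c7, Cyp2c6v1, Cyp2d2, Cyp2c13 and Cyp2c23, had obese differences of -0.38 to 0.32, none of which passed.

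**Figure D3:**
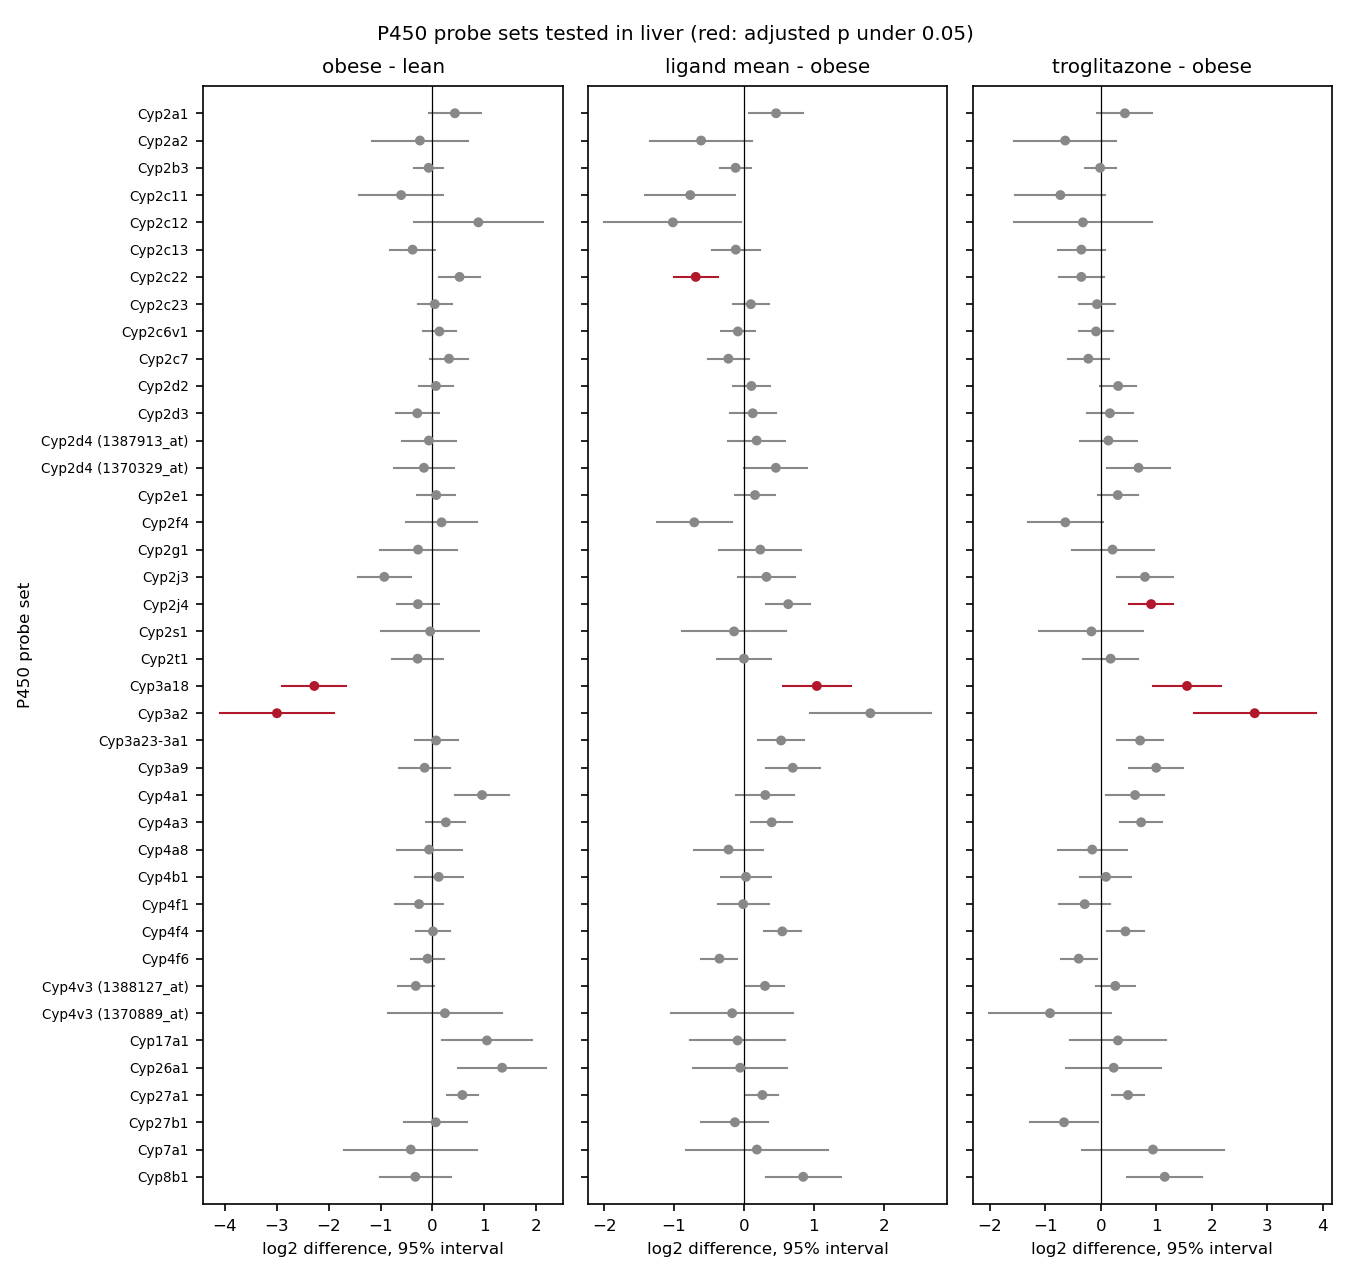
Log2 differences with 95% intervals for the 40 P450 probe sets tested in liver, for obese minus lean, the mean of 4 ligands minus obese and troglitazone minus obese; red marks adjusted p under 0.05. Cyp3a2 and Cyp3a18 lie farthest to the left in the first panel, and Cyp3a2, Cyp3a18 and Cyp2j4 are red in the third.

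The Cyp4a enzymes, which carry out omega-hydroxylation of fatty acids, gave no call in liver. Cyp4a1 read 7466, 3574 and 3773 in lean and 7572, 10386 and 9359 in obese liver, so the groups touched without overlapping. The difference was 0.95 ± 0.25 (limma, adjusted p = 0.0966), and without the lean array numbered 1 it was 1.29 and passed (adjusted p = 0.00903). Cyp4a3 had 0.26 ± 0.18 for obese against lean and 0.73 ± 0.18 for troglitazone against obese (limma, adjusted p = 0.705 and 0.0706). For Cyp4a8 the brighter of 2 probe sets had -0.07 ± 0.30, and the other was below the filter.

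Cyp4f4, a leukotriene and fatty acid hydroxylase named after its value was seen, read 3339 to 4567 on the 12 ligand arrays (median 3912), above the obese arrays at 2857, 3046 and 2236. The ligand mean difference was 0.55 ± 0.13 (limma, adjusted p = 0.0543). Over 9 tested Cyp4 probe sets the median was 0.01 for obese against lean and 0.03 for the ligand mean.

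Of the bile acid enzymes, Cyp27a1 read 6226, 4918 and 5878 in lean and 8409, 9320 and 7617 in obese liver. Each obese array was above each lean one, and the difference of 0.57 ± 0.14 missed the threshold (limma, adjusted p = 0.0652). Cyp7a1, the rate-limiting enzyme of bile acid synthesis, varied more among arrays of a group than any other member tested in liver, with a pooled SD of 0.96 on the log2 scale. It read 1970, 952 and 1510 in obese, 6256, 966 and 3371 in troglitazone and 6232, 3732 and 966 in AG035029 liver. Its differences of 0.94 and 0.99 with those ligands, each ± 0.61, did not pass (limma, adjusted p = 0.670 and 0.654).

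Cyp8b1, the sterol hydroxylase that sets the share of cholic acid, read 4380, 3189 and 3949 in obese liver. It was above all of these on each troglitazone and each AG035029 array, the lowest being 7129 and 7804. Neither difference passed (1.15 and 1.16, each ± 0.33, limma, adjusted p = 0.140 and 0.193). Cyp17a1, which in the adrenal gland and gonads makes androgen precursors, read 242, 181 and 145 in lean and 348, 517 and 366 in obese liver (1.05 ± 0.42, limma, adjusted p = 0.359). Of 11 other bile acid synthesis genes tested in liver, 0 passed for obese against lean or for the ligand mean, with medians of 0.14 and 0.00 (limma; 2 at an unadjusted p under 0.05 in each, where all probe sets had 9.76% and 10.6%).

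**Figure D4:**
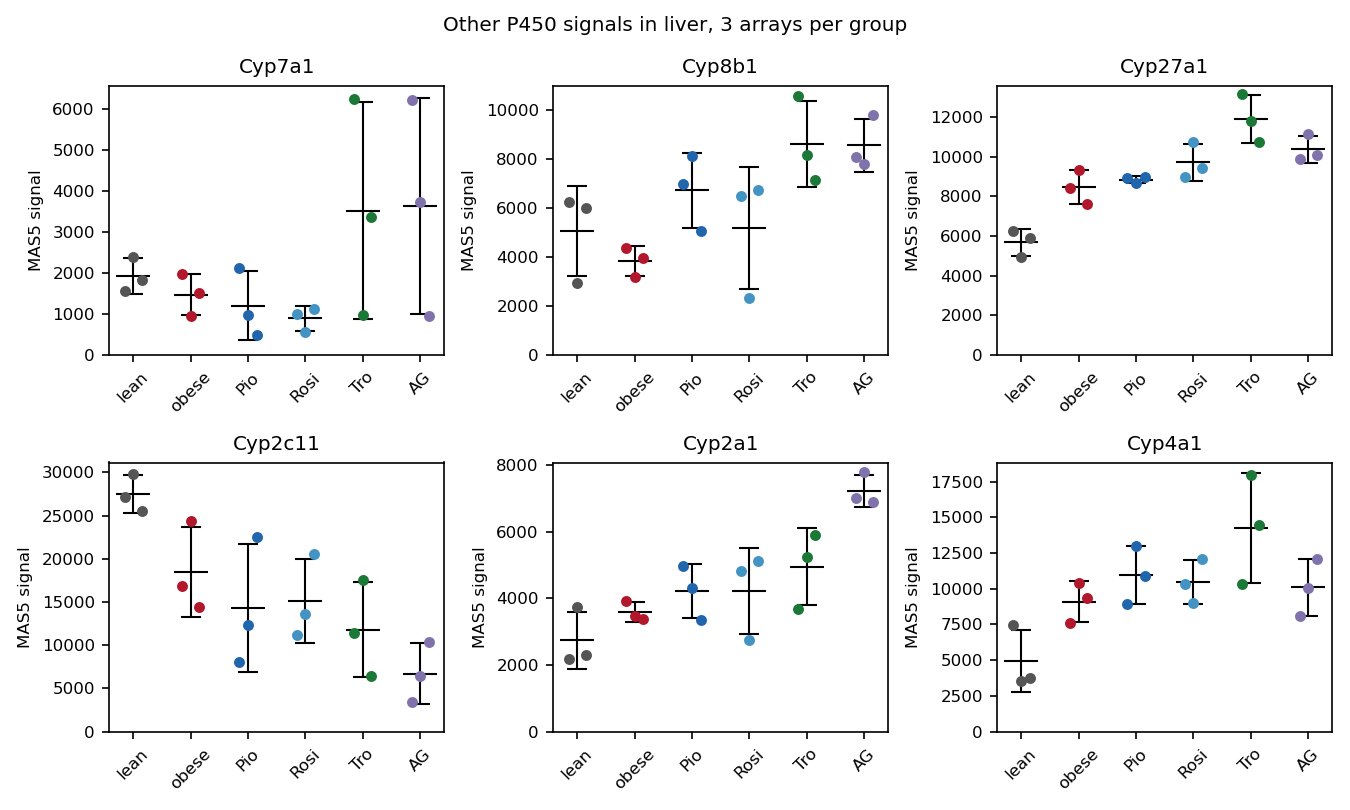
MAS5 signal of Cyp7a1, Cyp8b1, Cyp27a1, Cyp2c11, Cyp2a1 and Cyp4a1 in liver, with 1 point per array and a bar for the mean ± SD of 3 arrays (groups as in the plot of the Cyp3a genes). Cyp7a1 ranges from 966 to 6256 within the troglitazone group, Cyp2c11 is lowest in the AG035029 group, and none of the differences drawn passed the test.

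Among genes that serve or control the P450 enzymes, Por, the reductase that feeds microsomal P450 enzymes with electrons, was higher in liver with the ligands on average. The brighter of its 2 probe sets read 1465, 3289 and 1387 in obese liver and 5619, 7155 and 7145 with troglitazone. With pioglitazone it read 4237, 4710 and 4613, with AG035029 3357, 4695 and 3407 and with rosiglitazone 3421, 4742 and 2310, the last below the highest obese array. The ligand mean difference was 1.22 ± 0.22 (limma, adjusted p = 0.0110), a call that was not recomputed under the alternatives. Por was the 1 of 13 tested electron donor and haem synthesis genes called there (0.494% of all probe sets). None of 24 regulators passed in liver (limma). At an unadjusted p under 0.05 there were 6 for obese against lean (9.76% of all probe sets) and 5 for the ligand mean (10.6%). CAR (Nr1i3) read 230, 426 and 234 in obese and 861, 722 and 724 in troglitazone liver, with a ligand mean difference of 0.82 ± 0.22 (limma, adjusted p = 0.116), and PXR (Nr1i2) had 0.34 ± 0.15 (adjusted p = 0.396). Of 14 other known PXR and CAR targets, 1 passed for obese against lean (0.672% of all probe sets). It was Aldh1a1, a retinal dehydrogenase (1.38 ± 0.26, limma, adjusted p = 0.00836). For the ligand mean 0 of these targets passed, and 3 had an unadjusted p under 0.05 (10.6% of all). Of 20 PPAR-responsive fatty acid genes, 1 passed for obese against lean (0.672% of all), Me1, malic enzyme (1.59 ± 0.32, limma, adjusted p = 0.0166). For the ligand mean 0 of the 20 passed, and 3 had an unadjusted p under 0.05 (10.6% of all).

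In adipose tissue Cyp4b1 was higher in obese than in lean rats and higher again with every ligand. It read 1227, 1237 and 1213 in lean, 2466, 2523 and 3310 in obese and 6698 to 11287 on the 12 ligand arrays (median 8527). Lean, obese and ligand arrays formed 3 ranges that did not overlap. Obese exceeded lean by 1.15 ± 0.16 (limma, adjusted p = 0.000261), and the ligand mean exceeded obese by 1.62 ± 0.13 (limma, adjusted p = 1.48e-07). Cyp4b1 was the 1 of 11 members called for obese against lean, where 6.02% of all probe sets were called.

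Taken singly, troglitazone differed from obese by 1.68, pioglitazone by 1.65 and both AG035029 and rosiglitazone by 1.57, each ± 0.16 (limma, adjusted p at most 1.58e-05). None of the 6 ligand pairs differed for Cyp4b1. Their intervals stayed within -0.44 and 0.45, so differences of larger size lay outside them. All 6 calls held under each of 25 alternatives. The adipocyte marker sum was 44220 to 50936 in obese and 51415 to 72460 in ligand arrays, and macrophage genes, which summed to 34932 to 36930 in obese arrays, summed to 15170 to 31338 in ligand arrays and 16720 to 20208 in lean arrays. Over 14 hepatocyte genes the sum was 8772 to 10356 in obese and 11053 to 22782 in ligand adipose arrays. Albumin (Alb) held most of that gap, with 188 to 350 and 2560 to 9190, while Apoa1, another hepatocyte gene, was at most 34.2 on every adipose array. The part of these markers in the Cyp4b1 difference was not tested.

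With the ligand mean 4 of 11 adipose members were called, against 20.6% of all probe sets. Besides Cyp4b1, Cyp4f5 rose (9.01% of all rose), and Cyp4v3 and Cyp27a1 fell (11.6% of all fell). For 4 of 11 members, Cyp4b1, Cyp4f5, Cyp27a1 and Cyp2j4, ligand and obese arrays did not overlap (11.6% of all). Cyp4f5, a fatty acid hydroxylase, read 222, 211 and 155 in obese tissue and 285 to 474 on the ligand arrays (median 326), with no overlap (0.73 ± 0.14, limma, adjusted p = 0.00109). Cyp4v3, another fatty acid omega-hydroxylase, measured by the brighter of 2 probe sets, read 540, 784 and 690 in obese tissue and 367 to 589 on the ligand arrays, with overlap (-0.55 ± 0.13, limma, adjusted p = 0.00621). Without the obese array numbered 2 this call was lost (-0.43, adjusted p = 0.0644).

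Cyp27a1 read 353, 341 and 300 in obese tissue and 156 to 299 on the ligand arrays, narrowly without overlap. Its difference was -0.50 ± 0.16 (limma, adjusted p = 0.0339). It no longer passed without any filter, with quantile normalization, with median centring or without any 1 of the obese arrays (adjusted p up to 0.144). The epididymal array changed little: without it the ligand mean differences were 1.64 for Cyp4b1, 0.72 for Cyp4f5, -0.53 for Cyp4v3 and -0.50 for Cyp27a1, all still called. Without the obese array numbered 2 the count of 4 was 2.

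**Figure D5:**
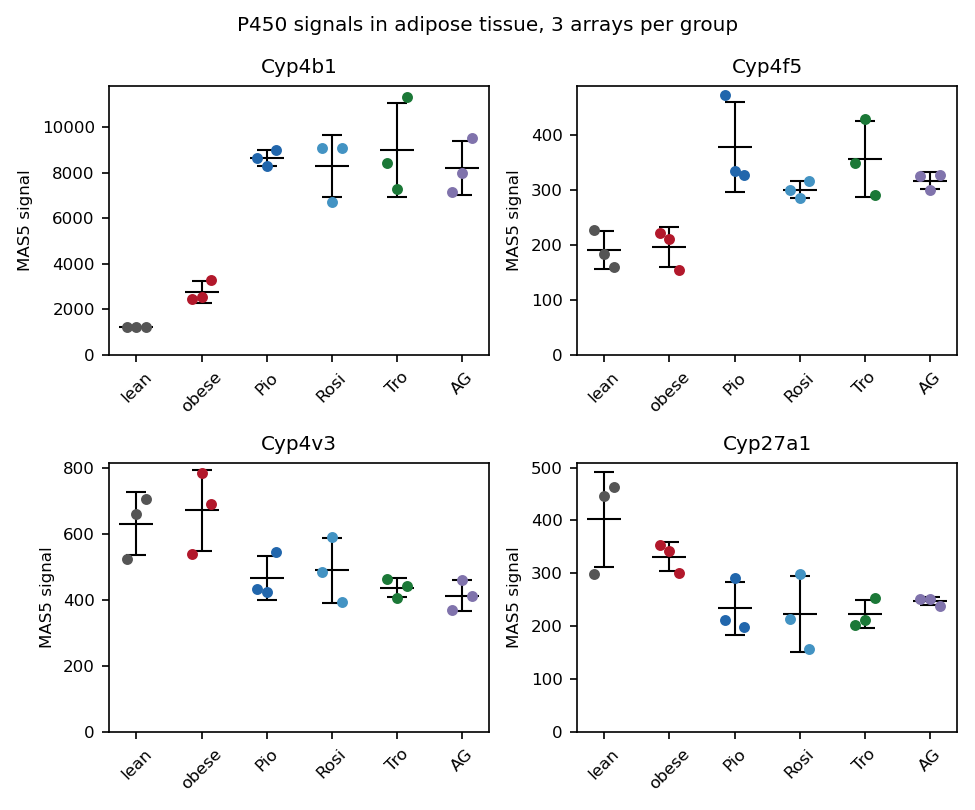
MAS5 signal of the 4 P450 probe sets called for the ligand mean in adipose tissue, with 1 point per array and a bar for the mean ± SD of 3 arrays (groups as in the plot of the Cyp3a genes). Cyp4b1 rises from about 1226 in lean arrays to 6698 to 11287 in ligand arrays, Cyp4f5 is higher in every ligand array than in every obese array, and Cyp4v3 and Cyp27a1 are lower on average.

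By single ligand, pioglitazone called 2 of 11 adipose members (14.5% of all), troglitazone 3 (16.9%), AG035029 3 (15.1%) and rosiglitazone 1 (5.56%). Cyp4f5 passed with pioglitazone, troglitazone and AG035029 (0.88, 0.80 and 0.66, limma, adjusted p = 0.00258, 0.00419 and 0.0171) and had 0.58 with rosiglitazone (adjusted p = 0.0626). The rosiglitazone count was 3 without the rosiglitazone array numbered 2, and 2 without the pioglitazone array numbered 1 or the troglitazone array numbered 2. Cyp4v3 passed with troglitazone and AG035029 (-0.58 and -0.67, limma, adjusted p = 0.0219 and 0.0113). The Cyp4v3 call with AG035029 was lost without the obese array numbered 2 (adjusted p = 0.0573). With troglitazone it was lost with median centring and without the obese array numbered 2 or 3 or the troglitazone array numbered 2 (adjusted p up to 0.106). The Cyp4f5 call with AG035029 was lost without the AG035029 or the obese array numbered 3 (adjusted p up to 0.0887). In the F-test among ligands 0 of 11 members passed (limma; 0.0315% of all), and 0 had an unadjusted p under 0.05 (9.22% of all). The members with the smallest p there were Cyp2t1, Cyp2d4 (dimmer probe set), Cyp4f5, Cyp4f6 and Cyp2j4, with p between 0.0898 and 0.505.

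Of the partner genes in adipose tissue, 2 of 14 electron donor and haem synthesis genes rose with the ligands, where 9.01% of all probe sets rose. They were Fdx1, the ferredoxin of mitochondrial P450 enzymes (0.43 ± 0.10, limma, adjusted p = 0.00563), and Cyb5b, a mitochondrial cytochrome b5 (0.45 ± 0.12, adjusted p = 0.0136). Of 18 PPAR-responsive fatty acid genes, 15 rose (9.01% of all) and 1, Cpt1a, fell (11.6% of all). Their median was 0.92, against -0.05 over all probe sets. Among the 15, Cpt1b, a mitochondrial fatty acid importer, rose by 2.26 ± 0.13 and Ehhadh, a peroxisomal oxidation enzyme, by 2.05 ± 0.14 (limma, adjusted p = 3.29e-09 and 2.44e-08). In obese against lean adipose tissue Pparg, the receptor of the ligands, differed by -1.07 ± 0.15 (limma, adjusted p = 0.000273). Hmox1, haem oxygenase, and Pgrmc1, a haem-binding partner of P450 enzymes, were higher in obese tissue by 0.73 ± 0.16 and 0.44 ± 0.12 (adjusted p = 0.00867 and 0.0315).

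In muscle none of the 14 members tested was called (limma). The share of all probe sets called was 0.021% for obese against lean, 0.242% for the ligand mean, 0.704% for troglitazone, 0.231% for pioglitazone, 0.116% for AG035029 and 0.0315% for rosiglitazone. At an unadjusted p under 0.05 there were 2 members for obese against lean (4.87% of all) and 2 for the ligand mean (7.11%). Single ligands had unadjusted counts of 3 for pioglitazone (5.98%), 1 each for AG035029 (6.72%) and troglitazone (10.7%) and 0 for rosiglitazone (6.73%). No member passed the F-test among ligands (0% of all), and 0 had an unadjusted p under 0.05 (9.68% of all).

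The highest lean muscle means were those of Cyp27a1 (809), Cyp4b1 (704), Cyp2d4 (630, brighter probe set), Cyp4f6 (543) and Cyp2j4 (284). Cyp4b1 read 547, 819 and 643 in obese muscle and 638 to 1812 on the ligand arrays (median 1019), with overlap, and its ligand mean difference was 0.64 ± 0.21 (limma, adjusted p = 0.433). The adipocyte marker sum was 5366 to 8126 in obese and 11509 to 38378 in ligand muscle arrays, and its part in the Cyp4b1 value was not tested. For Cyp2d4, obese minus lean was 1.27 ± 0.46 by the dimmer probe set, whose lean mean of 110 was dim, and -0.29 ± 0.24 by the brighter one. Neither passed. Muscle Pparg had a ligand mean difference of 2.01 ± 0.32 (limma, adjusted p = 0.00278). It read 31.4, 48.2 and 51.3 in obese muscle, below the signal of 138.8 at which the muscle filter cut. Lean muscle read 314, 213 and 294, and the ligand arrays read 64.5 to 364, so the difference rests on dim obese arrays.

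Whether an effect differed between tissues was tested in the joint fit. The ligand mean effect differed between tissues for 4 of the 8 members above the filter in each tissue, against 6.6% of the 7517 probe sets. Adipose tissue had a ligand effect on Cyp4b1 of 1.62, against 0.03 in liver and 0.64 in muscle (limma F-test, adjusted p = 0.000223). The liver effect was lower than the adipose one by 1.59 ± 0.26 and the muscle effect by 0.97 ± 0.26 (adjusted p = 8.9e-05 and 0.0277).

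Cyp27a1, Cyp4v3 (brighter probe set) and Cyp2j4 had lower values with ligands in adipose tissue and higher ones in liver. The effects were -0.50 and 0.27 for Cyp27a1, -0.55 and 0.30 for Cyp4v3 and -0.29 and 0.63 for Cyp2j4 (limma F-test, adjusted p = 0.0143, 0.0144 and 0.0383). Within liver none of these 3 effects passed (limma, adjusted p = 0.384, 0.409 and 0.0671), nor did that of Cyp2j4 within adipose tissue (adjusted p = 0.172). The F-test speaks for a difference between tissues, not for a rise in liver. The dimmer Cyp4v3 probe set passed the filter in liver alone, so its effect could not be compared between tissues. It read 21.4 to 237 on the 12 liver ligand arrays (median 151). The call of Cyp2j4 was lost in 11 of 62 alternatives, among them no filter, quantile normalization and median centring (adjusted p up to 0.136). Leaving out the liver obese array numbered 3 ended the calls of all 3, and the count of 4 was then 1. Without the liver obese array numbered 1 or the adipose obese array numbered 2 it was 2.

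The obese effect differed between tissues for 0 of the 8 members (limma F-test; 1.02% of the 7517 probe sets), and 4 had an unadjusted p under 0.05 (11.8% of the 7517). Among all 30 members of the joint fit Cyp3a18 alone passed, where 0.987% of all probe sets did. Its lean means were 14.7 in adipose tissue and 21.1 in muscle, near or below the added 20, so an obese effect could be read in liver only and that call says nothing of the other tissues. Cyp3a2 fell below the filter on the mean over all tissues and was not tested there.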

How the data were processed

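The series measured RNA in 54 samples of 3 tissues on Affymetrix Rat 230A arrays with 15923 probe sets, of which 57 control probe sets were left out. The deposited values are signal intensities that the authors computed with MAS5, per the submitters' processing notes, with no version given in the sources used here. On every array their mean, trimmed by 2% at each end, was 500, a scaling that hides a change in total RNA. Number of arrays, not read depth, limits the precision. Samples were grouped by the labels' genotype, ligand and tissue. Symbols came from the platform annotation, in which 12783 probe sets have 1 symbol, 312 several and 2771 none.

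A pseudocount of 20 was added before log2 values were taken, so differences of dim probe sets are understated. Per tissue, the probe sets whose mean log2 value exceeded the 40th percentile (9519) entered limma 3.58.1 in R 4.3.3, in 1 fit of 6 groups, and Benjamini-Hochberg adjustment ran over all of them. A joint fit of 54 arrays tested tissue differences and treated arrays of different tissues as independent. Array numbers recur across tissues, and the labels do not say whether the same rats gave all 3; deviations of same-numbered arrays of a group correlated between tissues by at most 0.0187 on average. A call is an adjusted p under 0.05, and differences are on the log2(signal + 20) scale with their SE. The code was tested on simulated data. Labels do not say whether rats were littermates, and p-values measure the spread between arrays of pooled RNA.

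The members and gene lists were chosen with earlier results of these data known. Genes named are members called in a main comparison, the members with the highest lean signal and a fixed set of P450 genes. Among that set are Cyp7a1, Cyp7b1, Cyp8b1, Cyp27a1, Cyp17a1, Cyp2c11, Cyp2e1, the Cyp3a and Cyp4a genes, Cyp4b1, Cyp26b1 and Cyp2j4. Also named are the 5 members with the smallest F-test p in liver and in adipose tissue. They are not listed for muscle, where no member passed that test. Members called between tissues or for 1 ligand are named too, with up to 4 called genes per list. Cyp2j3, Cyp2c12 and Cyp4f4 fall outside this and were chosen after their values were seen. Paralogous P450 genes can bind each other's probes, and this was not tested. Arrays with the same number were not treated as pairs, since their deviations from the group means correlated by at most 0.0184 on average in each tissue, with single pairs from -0.159 to 0.226. Alternatives were pseudocounts of 5 and 80, no filter, quantile normalization, a filter at the 60th percentile, centring on the array median, a replicate block, leaving out each array and, added after seeing the data, same-numbered arrays of a group as a random block across tissues.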

Additional observations from a re-analysis of the deposited data

Results flagged for a closer look

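For 4 members above the filter in each tissue the ligand mean effect differed between tissues by limma's F-test in the joint fit. For Cyp4b1 (adjusted p = 0.000223) it was 1.62 for adipose tissue, 0.03 for liver and 0.64 for muscle. For Cyp27a1 (adjusted p = 0.0143) these effects were -0.50, 0.27 and -0.27. For the brighter Cyp4v3 probe set (adjusted p = 0.0144) they were -0.55, 0.30 and -0.29, and for Cyp2j4 (adjusted p = 0.0383) they were -0.29, 0.63 and 0.00. In the fits of single tissues only the adipose effects of Cyp4b1, Cyp27a1 and Cyp4v3 passed.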

How the results depend on the processing

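With 3 arrays a group, their number limited the precision: pairs of ligands were compared with 95% intervals whose median distance to either side was 0.493 in liver, 0.363 in adipose tissue and 0.755 in muscle. Dim probe sets are bounded by the filter, since 9 members passed it in no tissue. Of 1053 alternative values of 35 named results, 943 kept their direction and their side of the threshold, 94 no longer passed, 16 newly passed and 0 reversed. Leaving out an array of a group outside a comparison changes the estimate of the spread but not the difference itself. Many of the 1053 values therefore could not reverse, and the 943 and the 0 overstate how firm the results are. Of 187 counts under alternatives that kept all arrays, 172 were within 1.5 times the reported count.

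The adipose rosiglitazone count of 1 was 2 with quantile normalization and with median centring. The adipose ligand mean count of 4 was 2 with the filter at the 60th percentile, and the lean adipose against muscle count of 10 was 5. The liver ligand mean count of 2 was 1 with a pseudocount of 5 or median centring, and 0 with no filter or quantile normalization. With a pseudocount of 80 the tissue difference count was 8 for the ligand effect, against 4, and 2 for the obese effect, against 1, all over the 30 members of the joint fit. The obese effect count was also 2 with quantile normalization and 0 with a pseudocount of 5 or the filter at the 60th percentile. The causes were not tested.

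With the replicate number as a block, the adipose rosiglitazone count was 2 and the liver ligand mean count 0, since Cyp2c22 and Cyp3a18 no longer passed; no other count moved by over 1.5 times and, among the single-gene differences recomputed with the block, no other call changed. A random block of same-numbered arrays of a group across tissues, added after seeing the data, changed none of the 5 counts and 5 single-gene calls of the joint fit.

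Leaving out 1 array gave adipose counts of 2 to 4 for the ligand mean, 2 to 3 for pioglitazone, 1 to 3 for rosiglitazone, 2 to 4 for troglitazone and 2 to 3 for AG035029. Liver counts were 2 to 3 for obese against lean, 0 to 4 for the ligand mean, 0 to 1 for pioglitazone, 0 to 5 for troglitazone and 0 to 2 for AG035029. In liver the pioglitazone count was 1 without the pioglitazone array numbered 3, and that of AG035029 was 2 without the rosiglitazone array numbered 2 and 1 without the obese array numbered 1 or the pioglitazone array numbered 2. Muscle counts were 0 to 1 for troglitazone, with 1 without its array numbered 3. Tissue difference counts were 1 to 6 for the ligand effect and 0 to 3 for the obese effect, the latter moving in 24 of 54 fits.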
